A study of Triticum aestivum with 8 samples.

Results

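Whole seed of the wheat cultivar AK58 (AiKang58) at 20 days after pollination (DAP20) was compared with whole seed at 15 days (DAP15), with 2 RNA-seq libraries at each stage. The labels count the days from fertilization, and they number the replicates without saying whether these came from separate plants, so the p-values below measure only the spread between these samples. The series also holds 4 endosperm libraries of earlier stages, which were used here only to see how one larger fit changed the result. The genes compared were the complete rows that stood in the part used of all 4 whole-seed tables, 79 genes out of 289 identifiers in these tables. A gene was tested when it had at least 1 TPM in at least 2 of the 4 libraries, which held for 27 of the 79. TPM, the unit of the tables, is the read count of a gene divided by its length and scaled so that each library sums to 1000000, so levels can be compared between genes, but the sequencing depth is unknown. All 79 identifiers begin with TraesCS1A, which places the genes on chromosome 1A, and they do not stand for the genome.

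During grain filling the wheat endosperm packs starch and storage proteins into its cells. The main storage proteins are gluten proteins, which are divided into the gliadins, mostly monomeric proteins that give dough its viscosity and extensibility, and the glutenins, which are linked into polymers by disulfide bonds and give it elasticity. Genes of the gamma- and omega-gliadins lie near the end of the short arm of the group 1 chromosomes, close to those of the low molecular weight glutenin subunits (LMW-GS). The part of chromosome 1A followed here holds such genes, next to genes for which the tables give no name.

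At the study's thresholds 0 of the 27 tested genes differed between DAP20 and DAP15, with the thresholds at an adjusted p under 0.01 and a log2 fold change over 1 in either direction (0.00% called). The test was limma on log2(TPM + 1) with Benjamini-Hochberg adjustment. At an unadjusted p under 0.05 it gave 12 genes, 2 higher (7.41%) and 10 lower (37.0%) at DAP20. The smallest adjusted p from limma, 0.0433, was shared by 7 genes, TraesCS1A02G001200, TraesCS1A02G001700, TraesCS1A02G004400, TraesCS1A02G004500, TraesCS1A02G005315, TraesCS1A02G005368 and TraesCS1A02G005700. Of these 7, 2 were higher (7.41%) and 5 lower (18.5%) at DAP20, and 3 also passed the fold threshold (11.1%), TraesCS1A02G001700 on the higher side and TraesCS1A02G005315 and TraesCS1A02G005368 on the lower. TraesCS1A02G001200, 1 of the 2 on the higher side, passed the filter through the DAP20 libraries alone, so its direction was built into its choice and it adds nothing to these counts. The smallest adjusted p from limma was above 0.05 with a pseudocount of 5 (0.0611), with no filter on low values (0.192), with size factors from genes outside the start of the identifier order (0.0663), with quantile normalization (0.349), with all 4 stages in one fit (0.0964), without DAP15 replicate 1 (0.297) and without DAP15 replicate 2 (0.269). Without a DAP15 replicate the spread came from the DAP20 libraries alone. With the size factors just named TraesCS1A02G005315 and TraesCS1A02G005368 were both at -0.95, short of the fold threshold. The smallest adjusted p from limma stayed under 0.05 with a pseudocount of 0.1 (0.0339) and with a filter at 5 TPM (0.0128). It also did so with median-of-ratios scaling (0.0229) and without the mean trend (0.0447), but none of these settings gave a call. Both DAP20 replicates lay above both DAP15 replicates for 7 of the tested genes (25.9%) and below them for 13 (48.1%). The 7 include TraesCS1A02G001200, whose place was built in, and TraesCS1A02G000700 and TraesCS1A02G000800, which also needed a DAP20 value to pass the filter. Over all 79 genes, of which 27 were at 0 in every library, these counts were 12 (15.2%) and 14 (17.7%). Over the 27 genes the log2 fold change had a median of -0.20, with an SD of 0.15 over the 4 pairs of a DAP20 with a DAP15 replicate. These pairs share libraries and are not independent, so the SD is no standard error of the median. The spread that limma shares between genes included 5 genes at the start of the identifier order, in 4 of which the DAP20 replicates differed by more than 2-fold. With only the other 22 genes in the fit, 3 were called, all lower at DAP20 (TraesCS1A02G005315, TraesCS1A02G005368 and TraesCS1A02G005387), and 0 once the size factors were used as well. In that smaller fit, with libraries left out after the data had been seen, 3 were also called without DAP20 replicate 2, but 0 without DAP20 replicate 1, without DAP15 replicate 1 or without DAP15 replicate 2.

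**Figure D1:**
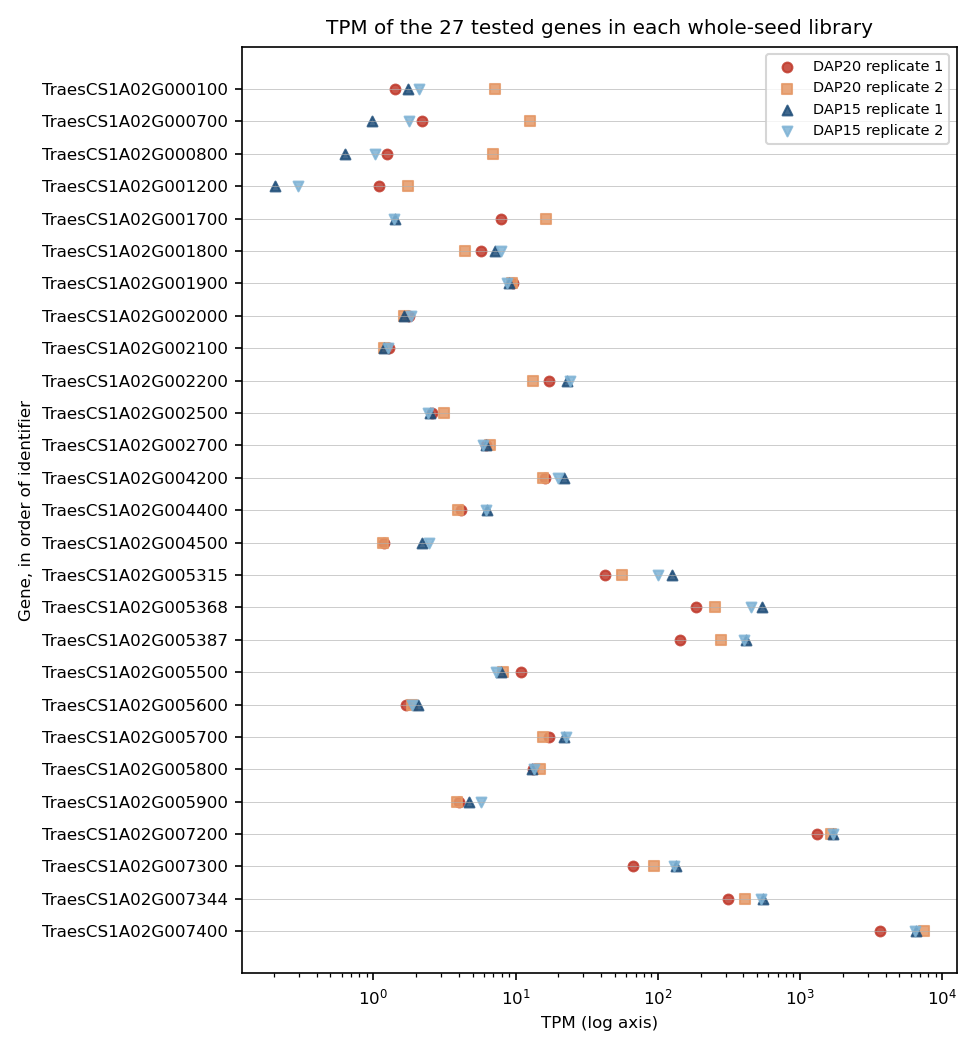
TPM of the 27 tested genes (log axis) in each of the 2 DAP20 and 2 DAP15 libraries, with genes from top to bottom in order of identifier and 1 symbol per library. The 7 genes above 40 TPM in every library form separate blocks at TraesCS1A02G005315 to TraesCS1A02G005387 and at TraesCS1A02G007200 to TraesCS1A02G007400, and the other 20 lie at 24.01 TPM or less.

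The tested genes fell into 3 sets, chosen after their values were seen and therefore described without a test of the set. The first holds the 7 genes above 40 TPM in all 4 libraries, which include the 3 gliadin genes of the study's lists found in all 4 tables. These 7 genes supplied most of the TPM of the 79 genes compared, with 5700 and 10209 TPM summed in DAP20 replicates 1 and 2, against 10042 and 9746 TPM in the DAP15 replicates. The sum of DAP20 replicate 1 was the lowest and that of DAP20 replicate 2 the highest, so the groups overlapped. Gliadin genes are expressed in the starchy endosperm, and their transcripts were abundant in all 4 libraries. No list of markers of the embryo or the seed coat was used, so the share of these tissues was not examined. The second set holds 5 genes at the start of the identifier order and the third the remaining 15.

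The gene with the clearest storage role in the first block was the omega-gliadin gene TraesCS1A02G005387. Omega-gliadins are the sulfur-poor gliadins, rich in glutamine and proline. TraesCS1A02G005387 had 144.5 and 279 TPM in the DAP20 replicates, against 414 and 403 TPM in the DAP15 replicates. Both DAP20 libraries were below both DAP15 libraries, although they differed from each other by 1.93-fold. Its log2 fold change was -1.02 (standard error 0.38, 95% interval -2.15 to 0.10, limma adjusted p = 0.123). Taken singly, DAP20 replicate 1 lay 1.49 below the DAP15 mean on the log2(TPM + 1) scale, and replicate 2 lay 0.55 below it. In whole seed, fewer endosperm cells and less RNA per cell cannot be told apart. A lower TPM is also only a smaller share of the library, so it need not mean less RNA of this gene. None of these readings was tested.

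Next to it by identifier stand TraesCS1A02G005315 and TraesCS1A02G005368, which have no name in the tables and are in none of the study's storage protein lists. TraesCS1A02G005368 had 185 and 253 TPM in the DAP20 replicates, against 539 and 454 TPM in the DAP15 replicates. TraesCS1A02G005315 had 42.6 and 56.0 TPM in the DAP20 replicates, against 125 and 100.5 TPM in the DAP15 replicates. In both genes the DAP20 replicates lay well below the DAP15 replicates, and the gap between stages was wider than that between replicates. The log2 fold changes were -1.19 for TraesCS1A02G005368 (standard error 0.23, limma adjusted p = 0.0433) and -1.18 for TraesCS1A02G005315 (standard error 0.21, limma adjusted p = 0.0433), the lowest of the 27 fitted values. DAP20 replicate 1 lay 1.42 and 1.38 below the DAP15 mean for these genes and replicate 2 lay 0.97 and 0.99 below it, on the log2(TPM + 1) scale.

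The second block runs from TraesCS1A02G007200 to TraesCS1A02G007400 and holds the gamma-gliadin genes. Gamma-gliadins are sulfur-rich gliadins that form disulfide bonds within the chain. The gamma-gliadin gene TraesCS1A02G007400 was the most abundant tested gene in every library, with 3630 and 7455 TPM in the DAP20 replicates, against 6580 and 6412 TPM in the DAP15 replicates. DAP20 replicate 1 lay below both DAP15 replicates and replicate 2 above them, so the groups overlapped. Its log2 fold change was -0.32 (standard error 0.50, 95% interval -1.80 to 1.16, limma adjusted p = 0.605), an interval that leaves room for a rise or a fall of more than 2-fold. On the log2(TPM + 1) scale replicate 1 was 0.84 below the DAP15 mean and replicate 2 was 0.20 above it.

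The other gamma-gliadin gene present in all 4 tables, TraesCS1A02G007300, was far less abundant and did not overlap between stages. It had 67.4 and 93.8 TPM in the DAP20 replicates, against 134 and 129 TPM in the DAP15 replicates. Its log2 fold change was -0.72 (standard error 0.20, limma adjusted p = 0.0808). TraesCS1A02G007344, without a name in the tables, had 312 and 409 TPM in the DAP20 replicates, against 551 and 533 TPM in the DAP15 replicates (log2 fold change -0.60, standard error 0.19, limma adjusted p = 0.102). Here too both DAP20 libraries were the lower ones. TraesCS1A02G007200, the second most abundant gene and also unnamed, had 1319 and 1663 TPM in the DAP20 replicates, against 1699 and 1713 TPM in the DAP15 replicates. Its DAP20 replicate 2 was close to the DAP15 libraries, and its log2 fold change was -0.20 (standard error 0.23, limma adjusted p = 0.507), or 0.035 with size factors from genes outside the start of the identifier order.

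As a list, the 3 gliadin genes had negative log2 fold changes between -1.02 and -0.32, with a median of -0.72, against a median of -0.20 over all tested genes. Without DAP20 replicate 1 TraesCS1A02G007400 turned to 0.20. With quantile normalization TraesCS1A02G005387 turned to 0.13, but this setting gives each rank the same value in every library. The 7 abundant genes held the highest ranks in every library, so their differences between stages were largely removed in advance. That setting therefore cannot decide the direction of the gliadin genes. None of the 3 was called in the fit of all 27 genes, and 1 of them, TraesCS1A02G007300, had an unadjusted p under 0.05 from limma, on the lower side, as did 37.0% of all tested genes. The summed level of the 3 genes was 3842 and 7828 TPM in the DAP20 replicates, against 7128 and 6945 TPM in the DAP15 replicates, that is 0.384% and 0.783% of all TPM, against 0.713% and 0.694%. This sum followed TraesCS1A02G007400 and overlapped between the stages. Gliadin genes have near-identical copies, and how the reads shared between copies were assigned is not given in the sources used here, so the values of single gliadin genes are uncertain.

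**Figure D2:**
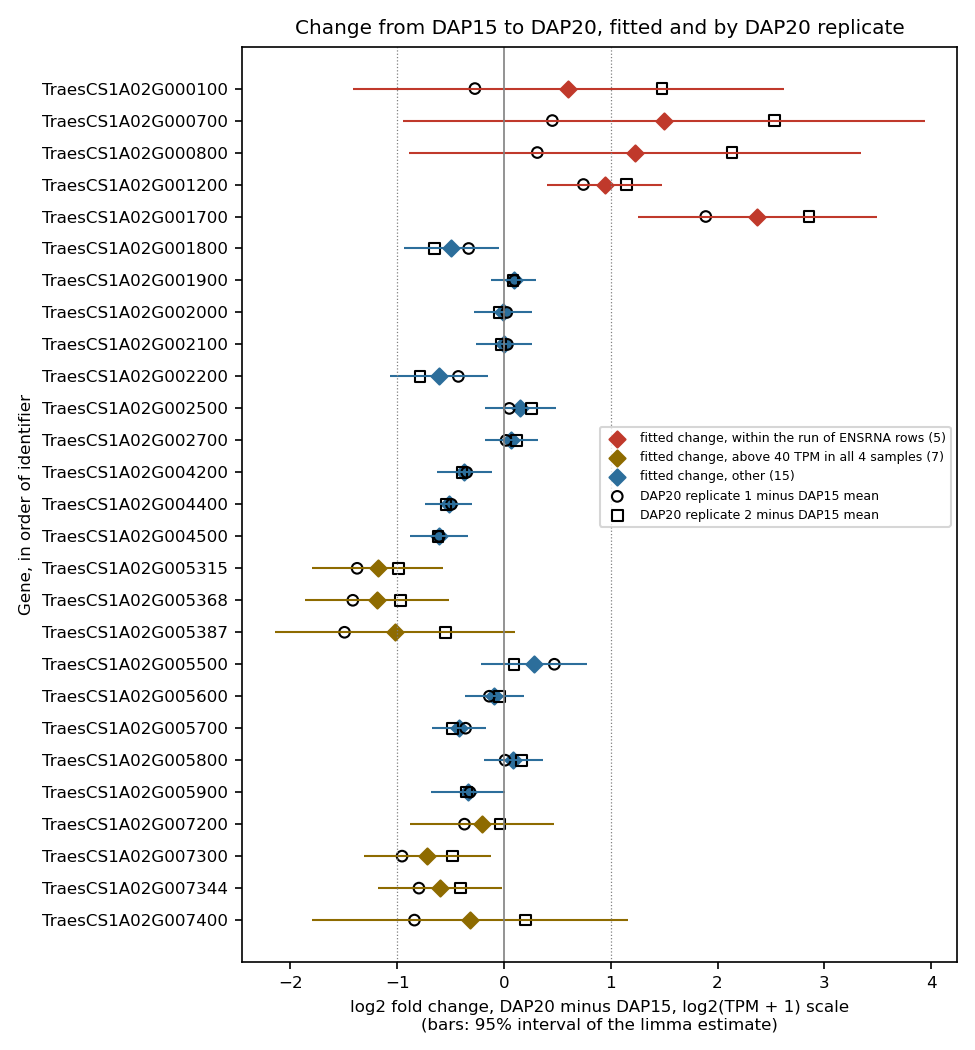
Log2 fold change of DAP20 against DAP15 on the log2(TPM + 1) scale for the 27 tested genes in order of identifier, with filled diamonds and bars for the limma estimate and its 95% interval and open symbols for each DAP20 replicate minus the DAP15 mean. The 5 genes at the top (within a run of ENSRNA rows) have estimates of 0.60 to 2.37 and the 7 abundant genes of -1.19 to -0.20. TraesCS1A02G007200 turns to 0.035 with size factors from genes outside the run. TraesCS1A02G005387 turns to 0.13 with quantile normalization, which largely removes differences between stages in the abundant genes. Dotted lines mark -1 and 1.

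Because a ratio of TPM within 1 library does not depend on how the library was scaled, the abundant genes were also expressed as a percentage of TraesCS1A02G007400 in the same library. The omega-gliadin gene TraesCS1A02G005387 stood at 3.98% and 3.74% of the gamma-gliadin gene in the DAP20 replicates, against 6.30% and 6.29% in the DAP15 replicates. The replicates of each stage were close to each other in this ratio, although the DAP20 libraries differed about 2-fold in the level of either gene. TraesCS1A02G005368 stood at 5.09% and 3.39% in the DAP20 replicates, against 8.19% and 7.08% in the DAP15 replicates, and TraesCS1A02G005315 at 1.17% and 0.751%, against 1.90% and 1.57%. All 3 genes of the first block were thus lower relative to TraesCS1A02G007400 in both DAP20 libraries. The gamma-gliadin gene TraesCS1A02G007300 was at 1.86% and 1.26% in the DAP20 replicates, against 2.03% and 2.02% in the DAP15 replicates. For TraesCS1A02G007200 (36.3% and 22.3%, against 25.8% and 26.7%) and TraesCS1A02G007344 (8.58% and 5.49%, against 8.37% and 8.32%) the DAP20 replicates fell on either side of the DAP15 replicates. The ratios are given as a description and were not tested.

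**Figure D3:**
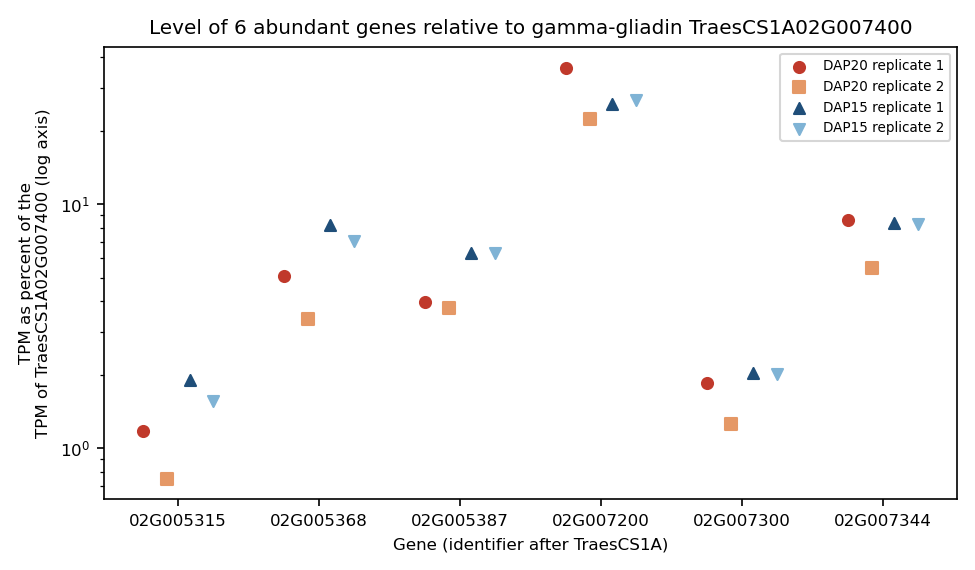
TPM of 6 abundant genes as a percentage of the TPM of the gamma-gliadin gene TraesCS1A02G007400 in the same library (log axis), with 1 symbol per library and the DAP20 libraries left of the DAP15 libraries. For TraesCS1A02G005387 the DAP20 libraries are at 3.98% and 3.74%, against 6.30% and 6.29% for the DAP15 libraries.

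The 15 genes outside these blocks and outside the start of the identifier order had 1.17 to 24.01 TPM. Their log2 fold changes ran from -0.61 to 0.28 with a median of -0.089, and none of them passed the fold threshold. Both DAP20 replicates were above both DAP15 replicates for 3 of the 15 and below them for 7, against 25.9% and 48.1% of all tested genes. These counts were 7 and 7 with size factors from genes outside the start of the identifier order, and 0 and 6 with quantile normalization. The 15 genes were themselves among those that set these factors, so an even split was largely built in. The lowest value was that of TraesCS1A02G004500, with 1.19 and 1.17 TPM in the DAP20 replicates, against 2.21 and 2.47 TPM in the DAP15 replicates (log2 fold change -0.61, standard error 0.09, limma adjusted p = 0.0433). Its DAP20 replicates agreed closely and lay well below those of DAP15. TraesCS1A02G002200 had 17.3 and 13.3 TPM in the DAP20 replicates, against 23.1 and 24.01 TPM in the DAP15 replicates (log2 fold change -0.61, standard error 0.15, limma adjusted p = 0.0695). TraesCS1A02G004400, named after its value was seen, had 4.15 and 3.97 TPM in the DAP20 replicates, against 6.30 and 6.20 TPM in the DAP15 replicates (log2 fold change -0.52, standard error 0.07, limma adjusted p = 0.0433). TraesCS1A02G005700, also named after its value was seen, had 17.1 and 15.6 TPM in the DAP20 replicates, against 22.1 and 22.5 TPM in the DAP15 replicates (log2 fold change -0.42, standard error 0.08, limma adjusted p = 0.0433). In these 4 genes both DAP20 values were below both DAP15 values, and the DAP20 replicates lay further apart in TraesCS1A02G002200 than in the other 3.

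On the higher side among these 15 were TraesCS1A02G005500 and TraesCS1A02G002500. TraesCS1A02G005500 had 10.9 and 8.17 TPM in the DAP20 replicates, against 7.95 and 7.24 TPM in the DAP15 replicates (log2 fold change 0.28, standard error 0.17, limma adjusted p = 0.279). TraesCS1A02G002500 had 2.59 and 3.15 TPM in the DAP20 replicates, against 2.52 and 2.41 TPM in the DAP15 replicates (log2 fold change 0.15, standard error 0.11, limma adjusted p = 0.379). These differences were small beside the intervals, and both turned negative with quantile normalization, to -0.044 and -0.34. TraesCS1A02G002000 and TraesCS1A02G002100, the least abundant tested genes after TraesCS1A02G001200, had log2 fold changes of -0.01 and 0.00, with 95% intervals of -0.29 to 0.26 and -0.26 to 0.26, and directions that changed between settings.

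The directions of small differences depended on how libraries were scaled. With size factors from the 25 genes above 0 in every library that stood outside the start of the identifier order and were no listed gliadin gene, the factors were 0.940 and 0.902 for the DAP20 replicates and 1.09 and 1.08 for the DAP15 replicates. Rescaled by these factors, the log2 fold changes of the 27 genes had a median of 0.035, and 11 genes lay above and 12 below DAP15 in both DAP20 replicates. The 7 abundant genes then had a median of -0.48 (range -0.95 to 0.035) and 5 of them lay below DAP15 in both replicates, and the 15 other genes had a median of 0.067. All 15 were among the 25 genes that set the factors, so their median near 0 was largely built in.

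The 5 genes at the start of the identifier order stood apart from the rest. They are TraesCS1A02G000100, TraesCS1A02G000700, TraesCS1A02G000800, TraesCS1A02G001200 and TraesCS1A02G001700, the tested members of 17 genes that the DAP20 tables list among 109 ENSRNA identifiers. What type of RNA an ENSRNA identifier stands for is not given there. The DAP15 tables list the same 17 genes in the same order but with 0 ENSRNA rows between them, so a difference in how the tables were made and the stage cannot be told apart for these genes. TraesCS1A02G001700 had 7.94 and 16.5 TPM in the DAP20 replicates, against 1.43 and 1.39 TPM in the DAP15 replicates. Both DAP20 libraries were far above both DAP15 libraries, and its log2 fold change of 2.37 was the highest of the fitted values (standard error 0.38, 95% interval 1.25 to 3.49, limma adjusted p = 0.0433). TraesCS1A02G001200 had 1.09 and 1.76 TPM in the DAP20 replicates, against 0.204 and 0.297 TPM in the DAP15 replicates (log2 fold change 0.94, standard error 0.18, limma adjusted p = 0.0433). It passed the filter through the DAP20 libraries alone, so a higher value at DAP20 was built into its choice.

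In the other 3 genes of this set the difference rested mainly on DAP20 replicate 2. TraesCS1A02G000700 had 2.21 and 12.6 TPM in the DAP20 replicates, against 0.984 and 1.78 TPM in the DAP15 replicates (log2 fold change 1.49, standard error 0.82, limma adjusted p = 0.279). TraesCS1A02G000800 had 1.26 and 6.98 TPM in the DAP20 replicates, against 0.633 and 1.03 TPM in the DAP15 replicates (log2 fold change 1.22, standard error 0.71, limma adjusted p = 0.279). In both genes DAP20 replicate 1 was slightly above DAP15 replicate 2 and further above DAP15 replicate 1, and DAP20 replicate 2 was severalfold above both. TraesCS1A02G000100 had 1.42 and 7.16 TPM in the DAP20 replicates, against 1.76 and 2.10 TPM in the DAP15 replicates, so that replicate 1 was below and replicate 2 above both DAP15 values (log2 fold change 0.60, standard error 0.68, limma adjusted p = 0.507, and -0.27 without DAP20 replicate 2).

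DAP20 replicate 2 exceeded DAP20 replicate 1 in all 17 genes of the run, by a median of 5.03-fold in TPM (1.61- to 19.7-fold). The ENSRNA rows among them moved the same way. They summed to 64.3 and 321 TPM in DAP20 replicates 1 and 2, and replicate 2 exceeded replicate 1 in all 64 ENSRNA rows above 0 in both libraries, with a median ratio of 4.90. At DAP15 the 16 genes of the run above 0 in both replicates had a median ratio of replicate 2 to replicate 1 of 1.43, and 12 of them were higher in replicate 2. The 7 abundant genes were also all higher in DAP20 replicate 2, by 1.26- to 2.05-fold. The 15 remaining genes had a median ratio between the DAP20 replicates of 0.969, with 4 of 15 higher in replicate 2. The part of the ENSRNA rows in the differences between stages was not tested.

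**Figure D4:**
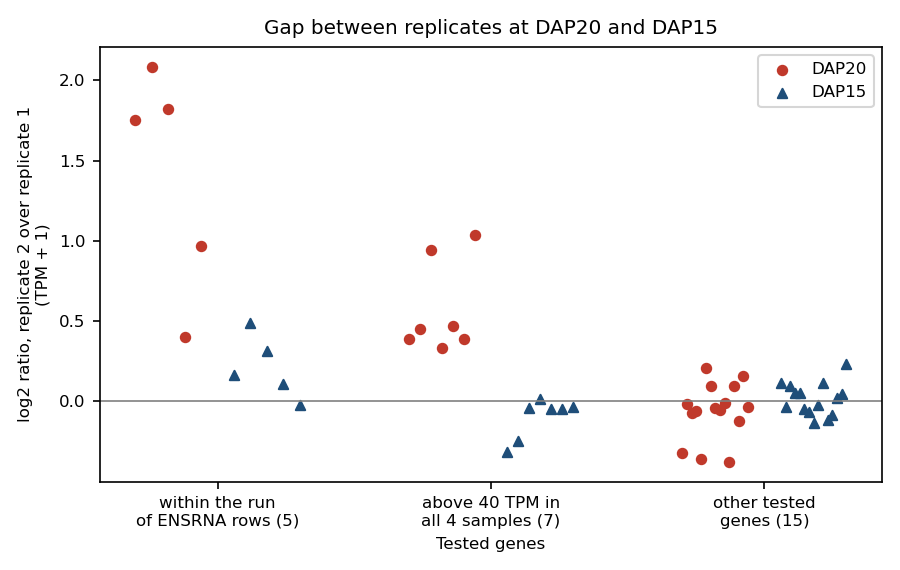
Log2 ratio of replicate 2 to replicate 1 (TPM + 1) for each tested gene, at DAP20 (circles) and, to the right, at DAP15 (triangles), in the 3 sets of genes. All DAP20 circles of the 5 genes in the run and of the 7 abundant genes lie above 0, while 4 of the 15 other genes do so.

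Each DAP20 replicate was therefore also set against the DAP15 libraries on its own. DAP20 replicate 1 was above both DAP15 replicates for 8 of the 27 genes and below both for 16, with a median difference of -0.32 from the DAP15 mean on the log2(TPM + 1) scale. DAP20 replicate 2 was above both for 11 and below both for 14, with a median of -0.041. Over the 7 abundant genes the medians were -0.95 for replicate 1, which lay below both DAP15 values in 7 of 7, and -0.48 for replicate 2, which did so in 6 of 7. Over the 5 genes of the run they were 0.45 and 2.13. Over the 15 other genes they were -0.14 and -0.047, so that the DAP20 libraries differed least in this set. In a fit without DAP20 replicate 2, limma called 4 genes, TraesCS1A02G001700 as higher and TraesCS1A02G005315, TraesCS1A02G005368 and TraesCS1A02G005387 as lower. Without DAP20 replicate 1 it called 5, all higher and all in the run, and TraesCS1A02G001700 was the only gene called in both fits. In these fits the lone DAP20 library is assumed to vary as the DAP15 libraries do, and limma pooled the spread over all genes, so their p-values rest on that assumption. The filter had also used both DAP20 libraries. TraesCS1A02G001200 passed it through them alone, and TraesCS1A02G000700 and TraesCS1A02G000800 needed a DAP20 value to pass. The higher values in the run, and its medians, were thus partly built in.

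The study sorted genes into clusters by stage, chosen on these same samples, so the counts that follow are not independent evidence of a direction. Of the 1364 genes in its DAP15s cluster, 4 were among those compared (TraesCS1A02G002200, TraesCS1A02G005315, TraesCS1A02G005368 and TraesCS1A02G005387), and all 4 were lower in both DAP20 replicates (48.1% of all tested genes were), with a median log2 fold change of -1.10 against -0.20 over all tested genes. Its DAP20s cluster holds 1211 genes, and the 9 that could be compared all lay within the run of ENSRNA rows. Both DAP20 replicates were above both DAP15 replicates for 5 of these 9, and the groups overlapped for 4. The same held for 8 of all 17 genes of the run, so cluster and run cannot be told apart. Over all 79 genes, 27 of them at 0 in every library, the share was 15.2%. Of the 9 genes, 4 were tested (TraesCS1A02G000100, TraesCS1A02G000700, TraesCS1A02G000800 and TraesCS1A02G001700). Their median log2 fold change was 1.36, against 1.22 over the 5 tested genes of the run. It was 0.38 with DAP20 replicate 1 alone and 2.34 with DAP20 replicate 2 alone. The 19 tested genes in neither cluster had a median of -0.20.

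Other storage protein genes of the study's lists stood in some of the 4 tables only and could not be tested. The gamma-gliadin gene TraesCS1A02G007405 had 1923 TPM in DAP20 replicate 2, against 1678 and 1562 TPM in the DAP15 replicates, and at 25.8% of TraesCS1A02G007400, against 25.5% and 24.4%, its ratio to that gene was nearly the same. The gamma-gliadin gene TraesCS1A02G007700 and the LMW-GS genes TraesCS1A02G008000, TraesCS1A02G010900, TraesCS1A02G007934 and TraesCS1A02G010905 were used from the DAP15 tables only. TraesCS1A02G008000 was the most abundant of these with 14849 and 15056 TPM, and TraesCS1A02G010905 the least abundant with 3.93 and 3.56 TPM. In between were TraesCS1A02G007700 with 6819 and 6908 TPM, TraesCS1A02G010900 with 3881 and 3865 TPM, and TraesCS1A02G007934 with 784 and 736 TPM. The differences in level between these genes were far larger than those between the DAP15 replicates. None of the 4 HMW-GS (high molecular weight glutenin subunit), 35 alpha-gliadin, 45 starch and 27 transcription factor genes of the lists was in the part used.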

How the data were processed

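RNA-seq libraries were made from whole seed of AK58 at DAP20 and DAP15. The values deposited by the authors are TPM per gene. According to the methods, reads were trimmed with fastp, aligned with hisat2, sorted with SAMtools and turned into TPM by TPMCalculator. The submitters' processing notes name Trimmomatic, HISAT2 2.0.5 and StringTie 1.3.3b instead, so which program made the values is unsettled. The genome build and the gene annotation are not given in the sources used here. Each table as used ends in an unfinished row, which was dropped. Complete rows numbered 189 and 190 at DAP20 and 179 and 179 at DAP15. They held 0.590% and 1.26% of all TPM at DAP20, against 3.85% and 3.83% at DAP15. These shares cover different genes, because the DAP15 part used runs on to abundant genes that the DAP20 part does not reach. Over the 79 genes compared the shares were 0.583% and 1.04% at DAP20, against 1.02% and 0.989% at DAP15. TPM keeps no counts, so the depth is unknown and DESeq2, which the authors used, was not run. None of the identifiers was matched in the RefSeq gene table (0 of 289), so positions and sequences are not given.

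The 27 genes were tested on log2(TPM + 1) in the 4 whole-seed libraries only, using the linear models of limma 3.58.1 (R 4.3.3) with a moderated variance that followed a mean trend, and p-values were adjusted over all 27. Fold changes of low genes are drawn toward 0 by the pseudocount of 1. The limma step was also run on simulated data in which all genes had the same spread. The genes compared here differ in spread, so that run does not show how the test performs on them. Python 3.11.15 with pandas 2.3.3 and matplotlib 3.10.9 served for the rest. Named are the listed storage protein genes, the 6 largest rises and 6 largest falls among tested genes whose stages do not overlap, the 6 most abundant genes, tested genes of the DAP15s and DAP20s clusters, the 3 with the widest gap between DAP20 replicates, and the 3 on each side of the filter. The genes and lists were chosen with earlier results of these data known. The alternatives were other pseudocounts, filters, scalings, sets of rows and fits, and leaving out each replicate in turn.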

Additional observations from a re-analysis of the deposited data

How the results depend on the processing

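No gene was called at the study's thresholds with pseudocounts of 0.1 or 5, with no filter on low values, with a filter at 5 TPM, with any of the 3 scalings, with all 4 stages in one fit, without trend or with no fold change threshold. Calls numbered 3 at an adjusted p under 0.05, 3 with only the genes outside the run, and 0 to 5 when single replicates were left out. With only the genes outside the run, a choice made after seeing the data, leaving out each replicate gave between 0 and 3 calls, and adding size factors from these genes gave 0. The pairing of replicate numbers was not given by the labels. Deviations from the stage means of same-numbered libraries had a correlation of 0.47 across the 27 genes, which are not independent replicates, and with the replicate number as a block 4 genes were called, 3 higher and 1 lower at DAP20.

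With no filter the median log2 fold change was 0 over all 79 genes, 27 of them at 0 in every library. With the filter at 5 TPM it was -0.42 over 17 genes. Over the 27 tested genes it was 0.035 with size factors from genes outside the run and 0 with quantile normalization. With each replicate left out it was between -0.32 and -0.041. Quantile normalization also set the median of the 3 gliadin genes to 0 and that of the DAP15s genes to -0.065. It gives each rank 1 fixed value in all libraries, and the ranks of the abundant genes differed little. With each replicate left out, the gliadin median ran from -0.95 to -0.48. The median log2 ratio between the DAP20 replicates in the 5 genes of the run was 1.75, and 0.92 with a pseudocount of 5.

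Of the 18 named genes tested, 8 reversed under at least 1 of the alternatives in which they were fitted and 10 did not, although 3 of the 10 (TraesCS1A02G005315, TraesCS1A02G007300 and TraesCS1A02G007344) were at 0 with quantile normalization. Genes removed by the filter at 5 TPM or lying inside the run had no value in the fits without them. With quantile normalization the change of TraesCS1A02G002100 was -0.095, of TraesCS1A02G002500 -0.34, of TraesCS1A02G005387 0.13 and of TraesCS1A02G005500 -0.044. TraesCS1A02G002000 was at 0.022 with median-of-ratios size factors and 0.14 with those from genes outside the run, where TraesCS1A02G007200 was at 0.035. With replicates left out, the range was -0.27 to 1.48 for TraesCS1A02G000100, -0.059 to 0.038 for TraesCS1A02G002000, -0.028 to 0.032 for TraesCS1A02G002100 and -0.84 to 0.20 for TraesCS1A02G007400. The cause of these reversals was not tested.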

Other observations

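Of the 52 genes below the filter, 27 were listed at 0 TPM in all 4 libraries. Among the other 25, both DAP20 replicates were above both DAP15 replicates for 5 and below them for 1, and the groups overlapped for 19. The shares over all 79 genes were 15.2% and 17.7%, but the 79 include the 27 at 0, so the shares are not directly comparable. Of the 5, TraesCS1A02G000600, TraesCS1A02G000900, TraesCS1A02G001300 and TraesCS1A02G001500 lie in the run of ENSRNA rows, and TraesCS1A02G005300 was listed at 0.0232 and 0.0443 TPM in the DAP20 replicates and at 0 in both DAP15 replicates. These genes, and the 1 that was lower, TraesCS1A02G004900 (0.675 and 0.625 TPM in the DAP20 replicates, against 0.739 and 0.684 TPM in the DAP15 replicates), were named after their values were seen.

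The genes nearest to the filter on its outer side were TraesCS1A02G000900, TraesCS1A02G001000 and TraesCS1A02G001100, which reached 1 TPM in DAP20 replicate 2 only. TraesCS1A02G000900 had 0.915 and 4.48 TPM in the DAP20 replicates, against 0.684 and 0.886 TPM in the DAP15 replicates. TraesCS1A02G001000 had 0.562 and 3.27 TPM, against 0.365 and 0.643 TPM, and TraesCS1A02G001100 had 0.475 and 3.03 TPM, against 0.540 and 0.601 TPM.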
